A study of Homo sapiens with 32 samples.

Results

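The resting transcriptome of MM.1S, an established human multiple myeloma cell line, was described from 3 RNA-seq libraries of cells that received only the vehicle DMSO. Each library had been read in 4 lanes, so these 3 libraries make up 12 of the 32 samples in the series, which holds 8 libraries in all. The libraries were chosen by their label, with earlier results of these data known, and no treated library was used. Cells grew in RPMI1640 with 10% fetal bovine serum and antibiotics, were exposed to DMSO for 1 h in place of carfilzomib, and then stayed for 12 h in fresh medium with DMSO in place of all-trans retinoic acid, per the labels' protocols. The RNA therefore comes from vehicle-treated cells, and cells without DMSO were not analysed here. All values refer to 1 cell line, and the labels do not say whether the libraries came from separate cultures. Every p-value below thus concerns whether these libraries differ beyond counting error, not how large a difference is, and a difference may be technical.

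Multiple myeloma is a cancer of plasma cells, the end stage of the B cell lineage. A plasma cell has switched off most of the B cell programme under PRDM1, XBP1 and IRF4 and gives its endoplasmic reticulum (ER) over to making one antibody. MM.1S is known to carry a translocation that joins the transcription factor gene MAF to the immunoglobulin heavy chain locus, and the MAF subgroup of myeloma is known for high CCND2, ITGB7 and CCR1. Folding antibody loads the ER, and cells answer through ATF6 and XBP1, which act on a promoter element called the ER stress response element (ERSE).

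The ERSE is spelled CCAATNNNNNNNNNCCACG, and a match on either strand was sought in 300-base promoters from RefSeq (GRCh38.p14), which run from 250 bases before to 50 bases after each start. Only 27 of 35116 promoters (0.0769%), belonging to 25 gene symbols, held it. A gene can have several promoters, and of 13066 genes measured here with a promoter, 17 held the element. Of the 50 genes listed here for antibody folding and export, 42 had a promoter in the table and 7 of those held the element. These stretches are shown for 6 of those 7 genes, whose levels are given below, and for XBP1, which is not on that list but holds the element too. Capitals mark the element, read in the direction of the gene, and the element starts with CGTGG where it lies on the opposite strand.
HSPA5, chr9:125241371-125241429, minus strand: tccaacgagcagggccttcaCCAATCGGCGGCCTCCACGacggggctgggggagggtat
HSP90B1, chr12:103930301-103930359, plus strand: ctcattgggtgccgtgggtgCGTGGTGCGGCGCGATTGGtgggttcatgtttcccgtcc
CANX, chr5:179698758-179698816, plus strand: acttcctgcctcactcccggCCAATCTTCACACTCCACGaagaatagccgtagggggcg
CALR, chr19:12938364-12938422, plus strand: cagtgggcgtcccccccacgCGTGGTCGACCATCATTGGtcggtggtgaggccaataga
PDIA6, chr2:10812833-10812891, minus strand: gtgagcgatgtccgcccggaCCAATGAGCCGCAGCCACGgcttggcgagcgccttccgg
CRELD2, chr22:49918534-49918592, plus strand: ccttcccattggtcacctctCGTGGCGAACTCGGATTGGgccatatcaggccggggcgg
XBP1, chr22:28800583-28800641, minus strand: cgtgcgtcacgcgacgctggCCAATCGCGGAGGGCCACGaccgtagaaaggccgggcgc

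Recovered depth was 17155331, 16567946 and 14945279 reads for DMSO 1, DMSO 2 and DMSO 3. Levels are in FPM, fragments per 1000000 of a library, and 3 reads correspond to 0.175 to 0.201 FPM. DMSO 3 stood apart from the other 2 libraries. DMSO 1 and DMSO 2 differed beyond counting error in 165 of 17462 genes (0.945%), by a chi-square test on reads at a Benjamini-Hochberg adjusted p under 0.05. DMSO 3 differed from DMSO 1 in 2358 of 17162 genes (13.7%) and from DMSO 2 in 2145 of 17066 genes (12.6%). Such a test compares these libraries, not conditions. Each level below is therefore given in all 3 libraries, or as the mean with its SD (n = 3).

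The line spread its reads over many genes. A mean of 1 FPM or more was reached by 13769 genes, 10 FPM by 9282, 100 FPM by 2385 and 1000 FPM by 74. The 10 most abundant genes took 6.63% ± 0.36 of the reads (SD, n = 3), the top 100 took 19.4% ± 0.59 and the top 1000 took 50.8% ± 0.45. Genes annotated as protein coding took 95.3% ± 0.20 of the reads. Ribosomal protein genes, with their named paralogs, took 4.17% ± 0.085, and the 13 mRNAs of the mitochondrial genome took 4.11% ± 0.96.

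The mitochondrial MT-CO1, a subunit of cytochrome c oxidase, took the most reads, with 8964, 8820 and 14325 FPM. It led only through DMSO 3, because in DMSO 1 and DMSO 2 both the elongation factor gene EEF1A1 (9081, 9144 and 9531 FPM) and ITGB7 took more reads. ITGB7, the beta chain of integrins that bind E-cadherin or MAdCAM-1, reached 9161, 8915 and 6867 FPM. The lambda light chain gene IGLC1 reached 8075, 7868 and 7464 FPM. TXNDC5, an ER disulfide isomerase, had 6583, 6642 and 5404 FPM, and JCHAIN, which links antibody units into polymers, had 4856, 5034 and 4105 FPM. Among the 20 genes with the most reads, 9 were mitochondrially encoded (MT-CO1, MT-ND4, MT-RNR2, MT-CO2, MT-ND2, MT-CO3, MT-ND5, MT-ND1 and MT-ATP6). The other 11 were EEF1A1, ITGB7, IGLC1, TXNDC5, JCHAIN, IGLL5, the nuclear noncoding RNA MALAT1, ACTB and the chaperone genes HSPA8, HSP90B1 and HSP90AB1. The same 20 genes came out on top when any 1 library was left out.

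**Figure D1:**
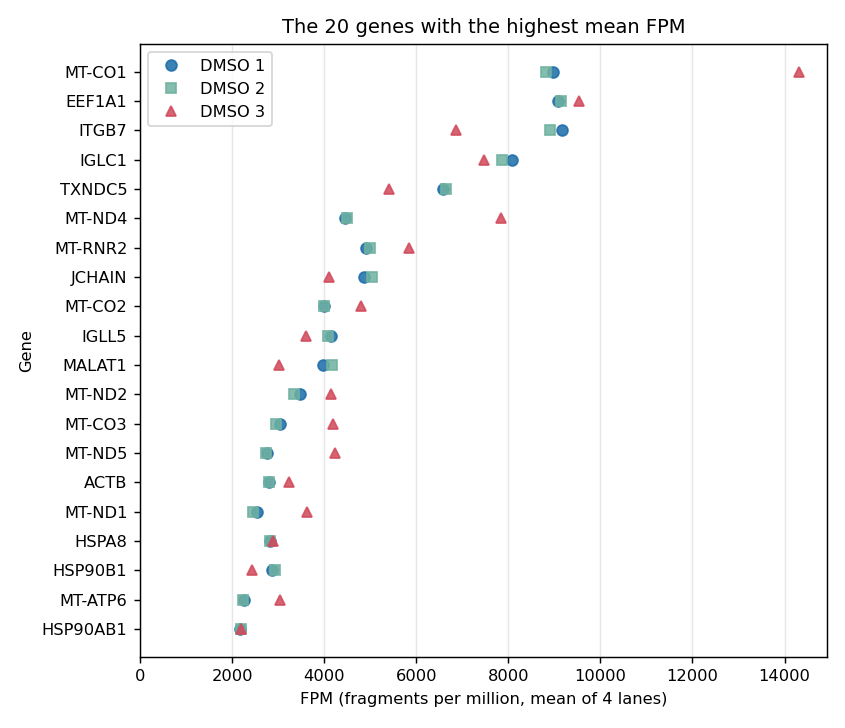
FPM of the 20 genes with the highest mean FPM (horizontal axis, linear), 1 marker per library. DMSO 3 lies to the right of both other libraries for the 9 mitochondrially encoded genes, as for MT-CO1 at 14325 FPM, and to the left for ITGB7, IGLC1, TXNDC5, JCHAIN, IGLL5, MALAT1 and HSP90B1.

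Levels between genes can be compared only per length, so FPM was divided by the median length of each gene's annotated transcripts and rescaled to a total of 1000000. On this scale IGLC1 stood highest at 16015 ± 632 (SD, n = 3), followed by ITGB7 at 10544 ± 1593 and JCHAIN at 7510 ± 791. The level of IGLC1 depends on how reads were divided between it and IGLL5, which is uncertain because they share sequence. A set of 14 genes was among the 20 highest with the median length, the longest transcript and the union of exons alike. It held ITGB7, JCHAIN, 4 lambda chain genes (IGLC1, IGLL5, IGLV2-14 and IGLV2-11) and 8 mitochondrially encoded genes. MALAT1 depended on the length used, with 7308 per length by the median transcript and 1119 by the longest.

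The antibody genes were those of a lambda light chain. Immunoglobulin genes together took 1.498% ± 0.081 of the reads (SD, n = 3), of which lambda genes, IGLL5 included, held 1.47% ± 0.080 and heavy chain genes 0.0296% ± 0.0011. No kappa gene has a row in the table used here. The variable segments IGLV2-14 (1586, 1470 and 1321 FPM) and IGLV2-11 (1338, 1357 and 1233 FPM) were abundant, and IGLV2-8 (94.4, 84.6 and 73.4 FPM) and IGLV2-23 (72.7, 67.9 and 60.5 FPM) far less so. Segments of this family share sequence, and 21.2% of the 31-base words of IGLV2-14 also occur in IGLV2-11, so how reads were divided among them is uncertain. IGLL5, with 4141, 4075 and 3613 FPM, lies over the IGLC1 locus and holds all 430 of the 31-base words of IGLC1, so these genes cannot be told apart by such words.

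Of the constant genes, IGLC1 carried nearly all the signal. IGLC2 had 2.33, 2.24 and 2.34 FPM, and IGLC3 had 0.174, 0.182 and 0.203 FPM, which is at the level of 3 reads. The first 120 bases of each constant exon (GENCODE 29, GRCh38, plus strand) are shown because reads of these neighbouring genes are told apart by few bases. Capitals mark bases that differ from IGLC1, 10 in IGLC2 and 11 in IGLC3.
IGLC1, chr22:22895375-22895494: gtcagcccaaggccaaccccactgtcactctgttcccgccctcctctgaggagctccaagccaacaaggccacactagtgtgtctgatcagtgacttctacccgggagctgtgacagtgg
IGLC2, chr22:22900976-22901095: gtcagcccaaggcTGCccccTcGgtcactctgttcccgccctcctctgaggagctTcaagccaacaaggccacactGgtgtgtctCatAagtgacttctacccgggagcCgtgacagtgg
IGLC3, chr22:22906342-22906461: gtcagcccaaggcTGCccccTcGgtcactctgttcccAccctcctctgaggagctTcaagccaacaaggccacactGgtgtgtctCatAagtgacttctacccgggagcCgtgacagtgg

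Heavy chain transcripts were present at a much lower level. IGHG1, the constant gene of IgG1, had 244, 232 and 232 FPM. IGHG4 (30.0, 26.9 and 26.0 FPM) and IGHG3 (14.6, 11.7 and 12.5 FPM) followed, and 42.5% of the 31-base words of IGHG4 also occur in IGHG1. IGHV3-30, at 12.3, 11.3 and 10.5 FPM, was the only heavy chain variable gene above 10 FPM. Per length, IGLC1 lay 81.1-fold above IGHG1 with median transcript lengths, 78.9 to 83.0 in single libraries. With the longest transcript or the union of exons it lay 188-fold or 199-fold above IGHG1. These folds depend on how reads were divided between IGLC1 and IGLL5, which is uncertain. The IgA genes IGHA1 (0.0579, 0.121 and 0.0674 FPM) and IGHA2 (0.290, 0.120 and 0.0674 FPM) were near the level of 3 reads, and the IgE gene IGHE was at 0 in all 3 libraries, which allows up to 0.201 FPM. IGHM and IGHD have no row in the table used here. JCHAIN, whose product joins IgA and IgM units, was thus among the most abundant genes beside almost no IgA reads.

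Of the 14 genes of myeloma translocations and the MYC loci that have a row, CCND2, IRF4, MAF, MYC and NSD2 had at least 100 FPM. MAF, the partner gene known for this line, had 899, 887 and 896 FPM, a coefficient of variation (CV, the SD over the mean) of 0.70%. MAFA has no row in the table used here. WWOX, in which MAF breakpoints are known to fall, had 3.96, 2.89 and 2.88 FPM. On its other side in GENCODE 29 order, DYNLRB2 had 0.116, 0.0599 and 0.0674 FPM and CDYL2 had 7.46, 8.69 and 6.499 FPM. Beyond these, CMC2 had 18.9, 19.1 and 20.2 FPM and CENPN had 35.3, 28.3 and 36.0 FPM. Per length MAF stood at 319 ± 2.2 (SD, n = 3), while its 2 protein-coding neighbours on each side that have a row were between 0.0466 and 3.87 per length. CMC2 and CENPN stood at 28.0 and 32.3 per length.

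CCND2, the D cyclin known to follow MAF, had 1649, 1700 and 1575 FPM. CCND1 had 7.22, 8.87 and 5.55 FPM and CCND3 had 27.7, 27.2 and 26.2 FPM. Per length CCND2 lay 232-fold above CCND1 and 65.3-fold above CCND3 with median transcript lengths, and 151-fold and 22.4-fold with the longest transcript. FGFR3, the receptor gene activated in another subgroup, had 0.350, 0.904 and 0.533 FPM. NSD2, the histone methyltransferase gene of that same subgroup, had 265, 269 and 272 FPM, so it was expressed here beside very low FGFR3. MYEOV had 17.6, 19.6 and 16.7 FPM.

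MYC, which myelomas often place under foreign enhancers, was even across the libraries. It had 338, 339 and 340 FPM (CV 0.28%). MYCN had 1.75, 2.35 and 2.21 FPM and MYCL had 4.13, 4.46 and 4.68 FPM. PVT1, the noncoding gene next to MYC, had 18.6, 17.6 and 19.1 FPM. IRF4, which can itself be a translocation partner and drives plasma cell survival, had 1217, 1209 and 995 FPM.

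Of the 6 listed genes linked to MAF, ITGB7 and CCND2 are given above. DEPTOR, an inhibitor of mTOR, had 371, 361 and 306 FPM. CCR1, a chemokine receptor, had 345, 343 and 288 FPM, and the kinase gene NUAK1 had 96.6, 98.9 and 82.2 FPM. CX3CR1, the fractalkine receptor, was low at 6.18, 6.88 and 4.61 FPM. All 6 had their lowest value in DMSO 3, where MAF itself was 896 FPM and lay between the other 2 libraries.

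**Figure D2:**
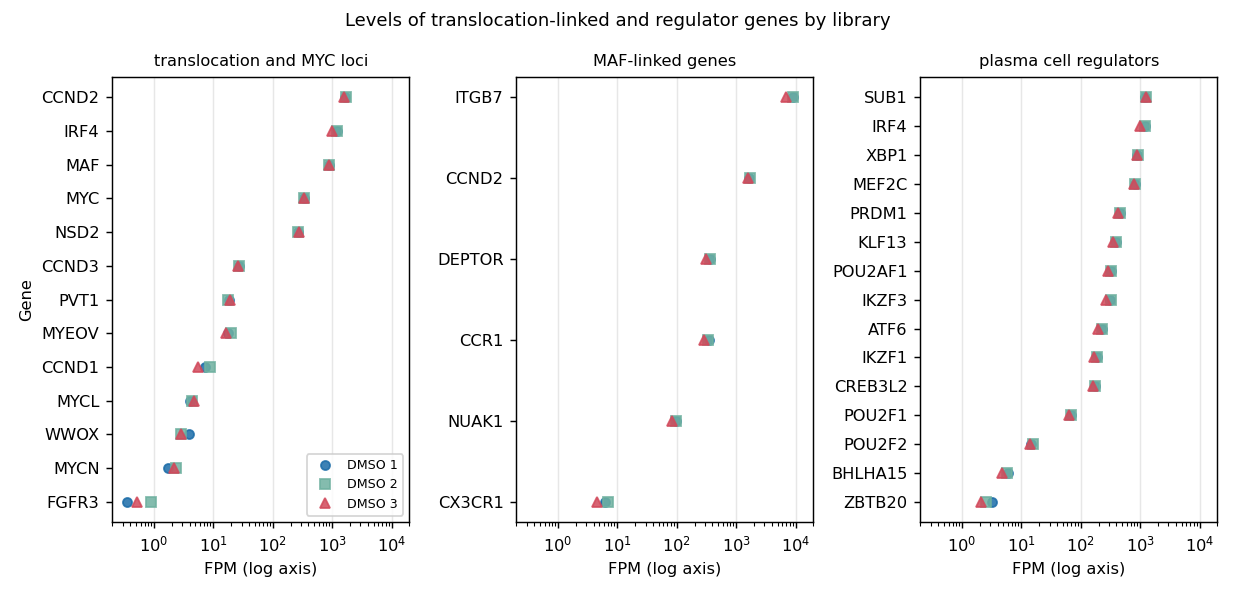
FPM (log axis) of 13 translocation and MYC locus genes, MAF-linked genes and plasma cell transcription factors, 1 marker per library. MAF lies at 887 to 899 FPM and FGFR3 under 1 FPM in every library, and the markers of 1 gene mostly overlap at this scale.

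The transcription factors of the plasma cell state were present in all 3 libraries. All 15 listed had a mean of at least 1 FPM and 11 had at least 100 FPM. XBP1, the ER stress factor, had 890, 906 and 888 FPM. PRDM1, the repressor of the B cell programme, had 463, 464 and 423 FPM. IKZF1 (189, 189 and 170 FPM) and IKZF3 (312, 325 and 263 FPM), the zinc finger factors that thalidomide analogs degrade, were both expressed. MEF2C had 833, 832 and 788 FPM and the coactivator gene POU2AF1 had 325, 318 and 292 FPM. SUB1 (1223, 1244 and 1269 FPM) and KLF13 (395, 390 and 348 FPM) were also abundant, as were ATF6 (228, 225 and 196 FPM) and CREB3L2 (176, 177 and 161 FPM). The lowest were POU2F1 at 67.0 FPM on average, POU2F2 at 14.8, BHLHA15 at 5.46 and ZBTB20 at 2.65.

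Of 32 listed surface genes of plasma cells, 31 have a row, 26 reached 1 FPM and 17 reached 100 FPM. SLAMF7, the target of elotuzumab, had 731, 734 and 593 FPM. SDC1, which encodes the plasma cell marker CD138, had 444, 433 and 393 FPM, and TNFRSF17, which encodes BCMA, had 240, 241 and 194 FPM. CD28, a costimulatory receptor usually linked to T cells, had 494, 496 and 420 FPM. CD38, the target of daratumumab, had 64.7, 67.5 and 79.5 FPM, and GPRC5D had 98.7, 101 and 70.6 FPM. The adhesion genes CD44 (947, 944 and 811 FPM) and ITGA4 (419, 419 and 372 FPM) were high. The complement regulators CD59 (709, 713 and 665 FPM) and CD46 (390, 406 and 355 FPM) were also high.

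Several surface genes of normal or malignant plasma cells were near the limit of reading. CD27, a memory and plasma cell marker, had 0.527, 0.0600 and 0.133 FPM. CD81 had 0.232, 0.0600 and 0.2003 FPM, CD200 had 0.174, 0.362 and 0.202 FPM, and FCRL2 and TNFRSF13C also stayed under 0.5 FPM on average. FCRL5 had 1.46, 1.27 and 1.34 FPM. NCAM1, which encodes CD56, had 13.5, 14.2 and 7.08 FPM, and KIT has no row in the table used here. The remaining listed members ranged from 5.22 FPM for ICAM1 to 320 FPM for BSG.

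The antibody secretion list was abundant throughout. All 50 genes had a mean of at least 1 FPM, 41 had at least 100 FPM, and together they took 3.35% ± 0.25 of the reads (SD, n = 3). Beside TXNDC5 and JCHAIN, the highest by FPM was HSP90B1, an ER chaperone gene whose promoter is shown above, with 2875, 2924 and 2432 FPM. CANX, which encodes the membrane chaperone calnexin, came next with 1648, 1662 and 1567 FPM. TENT5C, a poly(A) polymerase gene often lost in myeloma, had 1603, 1669 and 1458 FPM. Per length TENT5C stood lower, at 259 with the median and 718 with the longest transcript, against 1543 and 1759 for CALR. Other genes whose promoters are shown above were the chaperone genes CALR (1346, 1359 and 1125 FPM) and HSPA5 (980, 988 and 825 FPM), with PDIA6 at 759, 768 and 662 FPM and CRELD2 at 49.6, 45.6 and 38.2 FPM. UBE2J1, an enzyme gene of ER-associated degradation, had 1096, 1124 and 1085 FPM. The lowest member was ERO1B at 8.87 FPM on average.

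The driver genes of myeloma were mostly expressed. Of 28 listed, 25 have a row and 23 reached 10 FPM. The oncogene NRAS had 188, 193 and 215 FPM. TRAF3, a brake on NF-kappaB signalling, had 64.1, 62.5 and 55.6 FPM, and BIRC3 had 241, 233 and 224 FPM. CDKN2C and CDKN2A, which encode inhibitors of cyclin D kinases, have no row in the table used here, nor does EGR1. FAF1, the protein-coding gene next to CDKN2C on one side, had 1.05, 0.847 and 0.603 FPM, and DMRTA2, ELAVL4, BEND5 and AGBL4 beyond it have no row. On the other side, C1orf185 has no row and RNF11 had 75.1, 77.8 and 72.9 FPM. Further out, TTC39A had 0.524, 0.302 and 0.400 FPM and EPS15 had 136, 138 and 140 FPM. These neighbours were chosen after their values were seen.

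Growth factor and receptor genes spanned a wide range. Of 29 listed, 26 have a row, 18 reached 10 FPM and 7 reached 100 FPM, with a median of 23.4 FPM, and IL6 has no row in the table used here. IL6ST, the shared signalling chain, had 779, 782 and 683 FPM and IL6R had 571, 563 and 511 FPM. The growth factor gene IGF1 had 134, 135 and 101 FPM and its receptor gene IGF1R had 65.2, 63.3 and 52.3 FPM. NR3C1, the glucocorticoid receptor gene, had 210, 221 and 184 FPM. Among other receptor genes, IFNAR1 had 376, 387 and 349 FPM and IL2RG had 291, 285 and 235 FPM. Some were lower, with IL21R at 20.6 FPM, IL4R at 9.28 FPM and ERBB3 at 0.401 FPM on average. Of 14 listed genes of bone disease and the niche, CCL3, which encodes the chemokine MIP-1alpha, was the only one above 100 FPM, with 285, 282 and 171 FPM. Its near-identical copy CCL3L1 had 128, 121 and 73.5 FPM, so how reads were divided between them is uncertain. HPSE, a heparanase gene, had 25.3, 27.0 and 26.4 FPM, and DKK1, an inhibitor of bone formation, had 3.10, 3.38 and 2.54 FPM.

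Several defining genes of the B cell programme were near the limit of reading or have no row. PAX5, MS4A1, CD22 and FCER2 have no row in the table used here, and of the 25 listed genes that do, 18 reached 1 FPM and 9 reached 10 FPM. CD79A (0.0586, 0.480 and 0.0675 FPM) was at the level of a few reads. EBF1 had 0.0586, 0.482 and 0.604 FPM, whereas BACH2, another factor of earlier B cells, had 27.9, 25.6 and 28.8 FPM. The highest was CD74, and genes of antigen presentation made up 4 of the 9 that reached 10 FPM. CD74, the invariant chain, had 973, 933 and 822 FPM, HLA-DRA had 289, 286 and 227 FPM, and CIITA, their activator, had 47.1, 45.8 and 40.6 FPM. ETS1, a transcription factor gene, had 117, 121 and 124 FPM, and CR2, a complement receptor of B cells, had 33.8, 34.3 and 29.3 FPM. CD37 and CD79B each had 12.1 FPM on average.

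Markers of other lineages were mostly low or have no row in the table used here. Of 18 T and NK cell genes, 9 have a row and none reached 10 FPM, with KLRD1 the highest at 2.33, 2.18 and 1.61 FPM and CD3E next at 1.16, 1.09 and 1.54 FPM. Of 18 myeloid genes, 11 have a row and CLEC7A (39.3, 39.5 and 33.8 FPM) and CD68 (12.5, 12.5 and 9.85 FPM) reached 10 FPM, while CD14 had 0, 0 and 0.0664 FPM and LYZ has no row. Of 16 erythroid and megakaryocyte genes, 5 have a row, led by EPOR at 3.79, 4.47 and 4.34 FPM. Of 18 stromal and endothelial genes, 9 have a row, led by VIM at 367, 370 and 298 FPM, a filament gene that B lineage cells can also express. COL1A1 had 0.232, 0.0599 and 0.0674 FPM.

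Single genes of distant lineages were nonetheless read in every library. SOX2, a stem cell and neural factor, had 36.5, 35.4 and 38.2 FPM. MEIS1, a haematopoietic progenitor factor, had 38.4, 35.03 and 39.3 FPM, beside CD34 at 0.117, 0.241 and 0.0664 FPM. It belongs to a list of 11 progenitor genes, of which 6 have a row and 3 reached 10 FPM, with a median of 18.9 FPM. The highest of them was the transcription factor gene MYB, with 86.0, 85.3 and 107 FPM. COL6A3 had 16.4, 11.8 and 23.5 FPM. ESRP1, an epithelial splicing factor, had 9.57, 9.84 and 14.0 FPM, and MBP had 26.2, 25.6 and 31.5 FPM. Of 26 cancer-testis genes, 11 have a row. MAGEA1 was the highest of them at 85.1, 84.5 and 81.9 FPM. Next came TTK (73.0, 77.5 and 87.2 FPM) and PBK (68.6, 69.4 and 78.9 FPM), which also act in cell division.

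**Figure D3:**
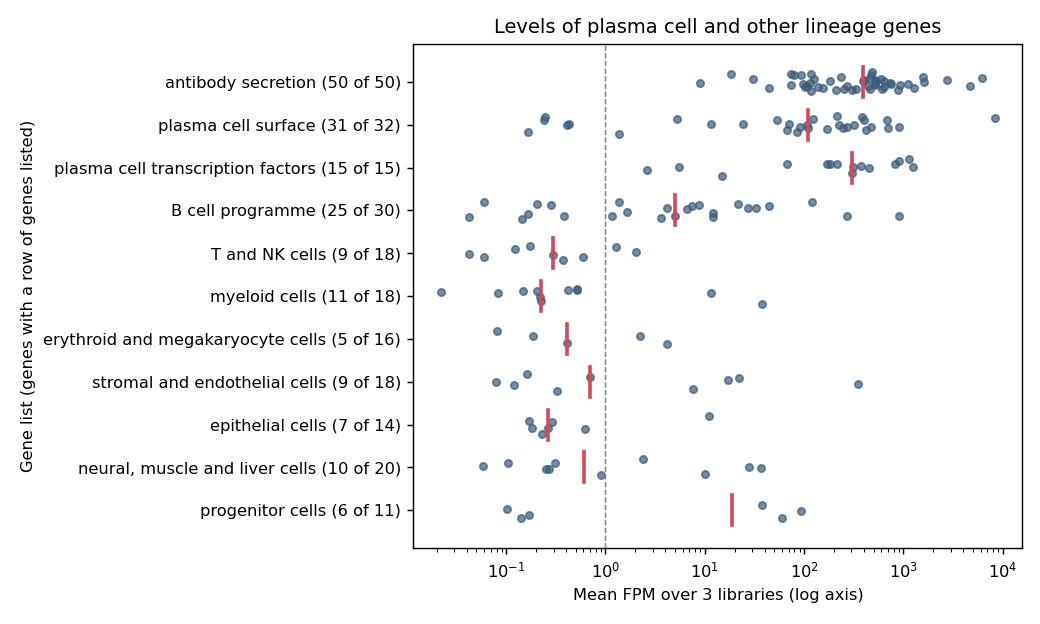
Mean FPM over the 3 libraries (log axis) of the listed genes that have a row, 1 point per gene, with the list median as a red bar and 1 FPM as a dashed line. The median was 395 FPM for antibody secretion genes, 5.06 FPM for the B cell programme 18.9 FPM for the 6 progenitor genes and under 1 FPM for the T and NK, myeloid, erythroid, stromal, epithelial and neural lists.

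The spread between libraries was near counting error for DMSO 1 and DMSO 2 and larger with DMSO 3. Over the genes with at least 1 FPM, the median CV was 6.53%, and it was 3.68% without DMSO 3. For genes of 100 to 1000 FPM the median CV was 3.62%, against 1.60% from counting error alone. With DMSO 1 and DMSO 2 only it was 1.49%, against 1.30% from counting. For the 74 genes of 1000 FPM or more these values were 5.26% and 0.545% with 3 libraries, and 0.890% and 0.442% with 2. TPI1, a glycolytic enzyme gene, was nearly identical across libraries at 536, 536 and 536 FPM.

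**Figure D4:**
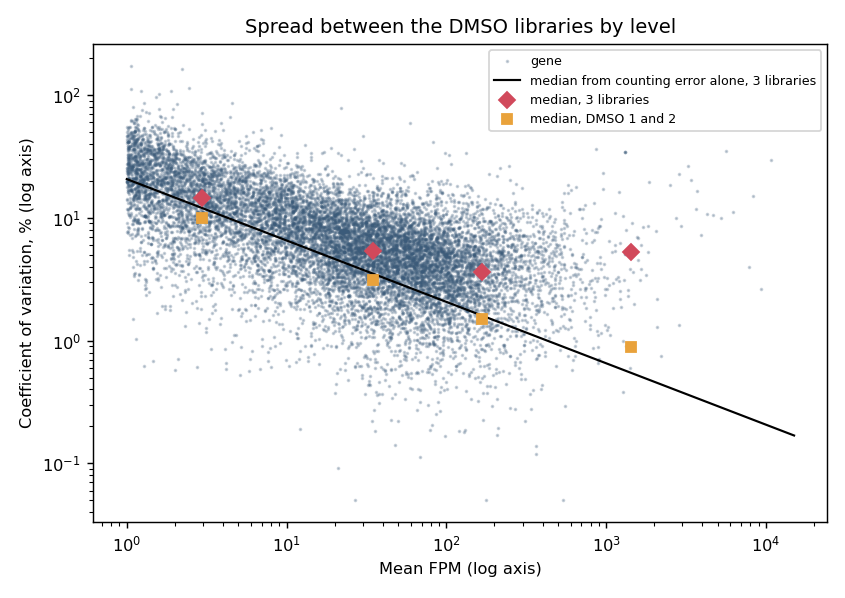
CV of FPM (log axis) against mean FPM (log axis), 1 point per gene of at least 1 FPM, with the median expected from counting error as a line and the medians of 4 level classes as markers. The 3-library medians, diamonds, leave the line above 10 FPM and reach 5.26% in the highest class, where the squares for DMSO 1 and DMSO 2 alone are at 0.890%.

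Over all 3 libraries, 2577 of the 17042 genes with an expected count of at least 5 in each library differed beyond counting error (15.1%), and 495 of them by at least 1.5-fold between the highest and lowest library (2.90%). DMSO 3 was the lowest library in 1427 genes (8.37%) and the highest in 969 (5.69%). DMSO 1 was the highest in 892 (5.23%) and the lowest in 546 (3.20%), and DMSO 2 the highest in 716 (4.20%) and the lowest in 604 (3.54%). Of the genes called, 37.6% had DMSO 3 highest and 55.4% had it lowest. With median-ratio scaling in place of the total these shares were 48.1% and 45.1%. The median ratio of DMSO 3 to the mean of the other libraries was 0.984 over all genes tested. The share of genes called rose with level. It was 6.78% at 1 to 10 FPM, 15.8% at 10 to 100, 43.1% at 100 to 1000 and 89.2% from 1000 FPM. Counts of called genes in a list therefore depend on the levels of its genes.

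Genes of cell division were higher in DMSO 3. Of 24 mitosis genes, 23 were called with DMSO 3 highest, against 5.69% of all genes tested, and the median ratio of DMSO 3 to the mean of the others was 1.15. In bulk RNA, more dividing cells and more RNA per dividing cell cannot be told apart. The mitotic kinase gene BUB1 had 313, 323 and 393 FPM, TPX2, a spindle factor, had 203, 197 and 247 FPM, and MKI67, the proliferation marker, had 899, 887 and 961 FPM. UBE2C, with 53.1, 52.0 and 58.9 FPM, was the member not called (chi-square adjusted p = 0.10). Of 24 DNA replication genes, 10 were called with DMSO 3 highest, 1 with it lowest, and the median ratio was 1.05. RRM2, a subunit of ribonucleotide reductase, had 1170, 1169 and 1300 FPM, and CCNE2, a cyclin of the start of S phase, had 14.2, 15.5 and 22.2 FPM. When the spread between libraries was set against the spread between lanes, the test changed and the ratios did not. By this test 1084 genes were called in all, 395 with DMSO 3 highest (36.4% of those called) and 656 with it lowest (60.5%). Among those with DMSO 3 highest were 15 mitosis and 5 replication genes.

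Transcripts of the mitochondrial genome differed as well. Of its 13 mRNAs, 12 were called with DMSO 3 highest, against 5.69% of all genes tested, and the median ratio was 1.40. MT-ND4 had 4452, 4496 and 7838 FPM and MT-ND4L, encoded on the same transcript, had 671, 698 and 1230 FPM. MT-ND3 was the exception, called with DMSO 3 lowest at 575, 565 and 493 FPM. Together the 13 mRNAs took 3.58%, 3.54% and 5.22% of the reads.

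Plasma cell genes were lower in DMSO 3. Over all genes tested, 8.37% were called with DMSO 3 lowest. Of 50 antibody secretion genes, 32 were called so and 1, SEC11C, with DMSO 3 highest, at a median ratio of 0.900. Of these 50 genes, 41 had at least 100 FPM, a level where a larger share of all genes was called. Of 28 surface genes tested, 17 were called with DMSO 3 lowest, and CD38 and CXCR4 were called with it highest. Of 15 plasma cell transcription factors, 9 were called with DMSO 3 lowest, and only SUB1 with it highest. HYOU1, an ER chaperone gene, had 468, 468 and 379 FPM, and SDF2L1 had 20.9, 20.4 and 13.4 FPM. XBP1 (chi-square adjusted p = 0.41) was not called. Of 16 tested genes whose promoter holds the ERSE, 6 were called, each with DMSO 3 lowest, and all 6 are antibody secretion genes already counted. Of the other element-holding genes, SERP1 and EIF2A (chi-square adjusted p = 0.44 and 0.75) were not called either. Of 11027 tested genes with any promoter in the table, 1061 were called with DMSO 3 lowest. Of 23 cholesterol synthesis genes, 10 were called, each with DMSO 3 lowest, among them INSIG1, whose product holds back SREBP activation in the ER, with 263, 266 and 225 FPM. With the total taken without the mitochondrially encoded genes, 30 secretion and 17 surface genes were called with DMSO 3 lowest, among 1150 in all. Under that total 24 mitosis genes were called with DMSO 3 highest, among 1331 in all. Set against the spread between lanes, 4 transcription factors and 6 cholesterol synthesis genes were called with DMSO 3 lowest, among 656 in all.

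**Figure D5:**
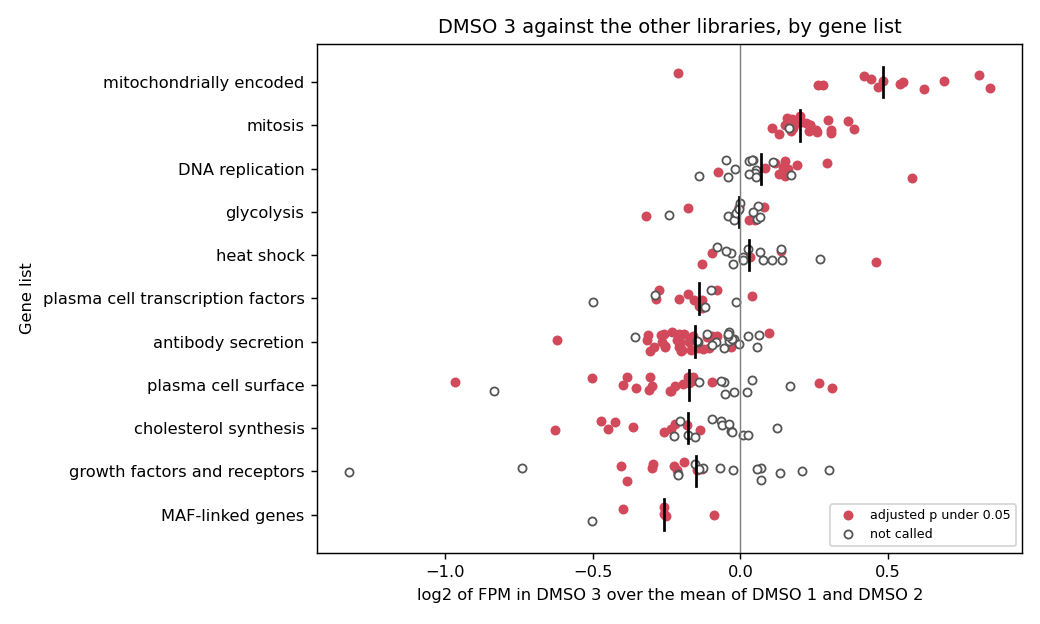
log2 of FPM in DMSO 3 over the mean of DMSO 1 and DMSO 2, 1 point per tested gene, filled where the chi-square test called it, with the list median as a bar. Mitochondrially encoded and mitosis genes lie mostly to the right of 0, and antibody secretion, surface and MAF-linked genes mostly to the left.

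Some other lists leaned to one side as well. Of 82 ribosomal protein genes tested, 36 were called with DMSO 3 highest, against 5.69% of all genes tested, and 2 with it lowest. Their median ratio was 1.04, and 77 of the listed genes had at least 100 FPM. With DMSO 3 lowest, 5 of 6 MAF-linked genes (median ratio 0.836), 9 of 24 growth factor and receptor genes (0.901) and 6 of 22 immunoglobulin genes (0.884) were called. The share over all genes tested was 8.37%. Glycolysis and heat shock genes had median ratios nearer to 1. Of 18 glycolysis genes tested, 6 were called (33.3%, against 15.1% of all genes tested). DMSO 3 was highest in 3 of the 6 and lowest in 2, and the median ratio over all 18 was 0.997. For heat shock genes, 5 of 18 were called (27.8%) and the median ratio was 1.02. HSPA1B, with 89.3, 86.6 and 121 FPM, was the largest difference among them, and HSPA1A, a near-identical copy, had 5.54, 6.27 and 6.497 FPM, so how reads were divided between the copies is uncertain. Of 24 genes often used as references, 15 were called (62.5%), 10 with DMSO 3 highest and 4 with it lowest. All genes tested gave 15.1%, but 19 of these 24 had at least 100 FPM. Of all genes of 100 to 1000 FPM, 43.1% were called. ACTB had 2801, 2801 and 3239 FPM and YWHAZ had 532, 532 and 617 FPM, both called, as was GAPDH (2045, 2058 and 2096 FPM) at a smaller difference, while RPLP0 (1025, 1010 and 1000 FPM), PGK1 (632, 641 and 628 FPM) and HPRT1 (93.9, 99.9 and 99.7 FPM) were not.

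Among the called genes of at least 10 FPM with the largest folds, some had copies in the annotation. An ID named MATR3 went from 41.3 to 8.70 and 16.0 FPM, beside a second ID of that name with 480, 508 and 531 FPM, and its lanes also differed. The noncoding IDs FP236383.2, FP236383.3 and FP671120.3 had the same values, 1345, 1760 and 854 FPM, and share all their 31-base words, so they were 1 measurement. Others had lanes that agreed. CXCL10, an interferon-induced chemokine gene, had 23.4, 22.6 and 10.9 FPM, the adhesion gene DSCAM had 16.3, 15.6 and 7.09 FPM, and SEMA5A had 26.4, 25.4 and 13.7 FPM, all lowest in DMSO 3. GPM6A (90.8, 68.5 and 134 FPM), BTBD9 (99.2, 73.4 and 140 FPM) and FGF23 (47.8, 40.3 and 68.2 FPM), a hormone gene of phosphate balance, also differed beyond counting error, with DMSO 2 lowest and DMSO 3 highest.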

How the data were processed

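RNA-seq of total RNA was measured in 12 lane samples, 4 lanes of each of 3 DMSO libraries. Per the submitters' processing notes, reads went through fastp 0.20.0, kallisto 0.46.2 and DESeq2. Genome build, annotation and strand setting are not given in those notes, the labels or the file header, so genes overlapping on opposite strands may share reads. The authors deposited FPM, a CPM unit, per lane, and each column sums to 1000000 over 24249 distinct gene IDs (24402 lines, 143 IDs repeated with equal values, each used once). Rows hold at least 10 reads over all 32 columns. Whole reads were recovered for 100% of values within 0.01 read, so the lanes of a library were averaged in FPM and summed in reads. These whole reads may be rounded kallisto estimates, and counting error does not cover how reads were divided among similar genes. Chi-square per degree of freedom between lanes of a library was 1.21 to 1.26, and lanes differed in 335 of the 17042 genes tested, 157 of them among the 2577 called. Symbols came from the table for 17006 IDs, GENCODE 29 for 6482 and a name table for 754, and 7 had none. Lengths came from GENCODE 29 for 23427 IDs and were missing for 822.

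Reads of the 3 libraries were compared by chi-square with 2 degrees of freedom, adjusted by Benjamini-Hochberg over all genes with an expected count of at least 5, and called under 0.05 (Python 3.11.15, scipy 1.17.1). The test was checked on simulated data. Levels have no test. Precision figures cover counting error only. The members and gene lists were chosen with earlier results of these data known. Genes named are the 20 highest by FPM and per length, immunoglobulin genes from 10 FPM, the translocation, MAF-linked, regulator and surface lists, the 3 highest and defining lowest genes of other lists, and the 10 called genes of at least 10 FPM with the largest fold for each library that is highest or lowest, of which some are given. Further list members were named after their values were seen. Alternatives changed thresholds, scaling, lengths, the test and the libraries used. A few listed genes count in the list totals but are not reported here by name.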

Additional observations from a re-analysis of the deposited data

How the results depend on the processing

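The 10 and 100 most abundant genes took 5.74% and 17.1% of reads without mitochondrially encoded genes, and 7.17% and 22.9% of the total per length. Leaving out 1 library moved these shares between 6.42% and 6.74% and between 19.1% and 19.6%. The median CV was 7.50% from 0.5 FPM, 5.85% from 2 FPM and 4.87% from 10 FPM, and 3.68% to 6.26% without 1 library, the lowest without DMSO 3. The count of 2577 genes that differed was 1084 when the spread between libraries was set against that between lanes, and 165 to 2358 without 1 library, the lowest without DMSO 3. It was 2403 to 2665 under median-ratio scaling, totals without mitochondrial genes, and the other minimum counts. Set against lanes, and chosen after seeing the data, 15 mitosis and 5 replication genes were called with DMSO 3 highest, among 395 in all. With it lowest were 6 cholesterol synthesis genes and 4 plasma cell transcription factors, among 656 in all. The ratios are the same under this test, and DMSO 3 lay above both others in all 24 mitosis and 19 of 24 replication genes. Counts of genes from 1 FPM were 12245 to 15696 under other thresholds. Of the 20 genes highest per length, 16 stayed with the longest transcript and 14 with the union of exons. No paired analysis was possible because only 1 group of libraries was described. Depth limits genes under about 0.2 FPM, where 3 reads or fewer decide a value.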

Other observations

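Gene groups outside the main description were also present at rest. Of 34 interferon-stimulated genes with a row, 28 reached 1 FPM, led by SAMD9L at 262, 269 and 245 FPM and STAT2 at 196, 196 and 183 FPM, while ISG15, one of the strongest interferon targets, had 1.17, 0.783 and 0.937 FPM. Genes of the ATF4 amino acid response were moderate, with MTHFD2 at 245, 250 and 269 FPM and ATF4 itself at 214, 217 and 237 FPM, and DDIT3, which encodes CHOP, had 5.71, 5.62 and 6.29 FPM. Of 18 immediate early genes with a row, FOS had 1.34, 1.63 and 0.536 FPM, FOSB had 0.350, 0.0599 and 0.333 FPM, and BTG2 was the highest at 470, 468 and 503 FPM. The hypoxia gene CA9 has no row in the table used here, and PDK1, a kinase that limits entry of pyruvate into mitochondria, had 351, 366 and 326 FPM.

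Of 24 long noncoding RNAs tested, 12 were called (50%, against 15.1% of all genes tested). DMSO 3 was highest in 9 of the 12 and lowest in 3, and the median ratio over all 24 was 1.12. The nuclear RNA MALAT1 had 3968, 4165 and 3013 FPM, lowest in DMSO 3, and NEAT1, its genomic neighbour, had 1086, 1082 and 1418 FPM, highest there. The snoRNA host genes GAS5 (163, 172 and 205 FPM) and SNHG1 (183, 187 and 222 FPM) were also highest in DMSO 3.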
